A study of Mus musculus with 6 samples.

Results

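The potassium channel genes examined here were the genes of the deposited table whose symbol begins with Kcn, leaving out Kcnj11, Kcnma1, Kcnmb1 to Kcnmb4 and Kcnq1ot1. This gave 85 Ensembl gene IDs with 83 symbols, out of 19940 gene IDs in the table, since Kcnb2 and Kcnh8 each stood under 2 IDs. RNA of hand-picked islets of Langerhans from C57BL6/J mice had been sequenced in 3 samples from pregnant animals at gestational day 14.5 and 3 samples from nonpregnant animals labelled as littermates. The labels state neither the animals' age nor whether a sample is 1 animal or a pool, and the design text speaks of 5 animals in each group. Pancreatic islets are small clusters of endocrine cells, and each library holds the RNA of all their cell types together. For each gene and group the authors deposited a single mean read count and no value for a library. No spread between samples can therefore be shown, and significance rests on the authors' own test, the method of which their files and labels do not name. Where a pair of values is given below without further words, the nonpregnant value comes first.

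Potassium channels let potassium ions leave the cell and so hold or restore its negative resting voltage. In beta cells, closure of ATP-sensitive channels after glucose uptake depolarises the membrane and starts calcium entry and insulin release, and voltage-gated and calcium-activated potassium channels then end each electrical spike. The Kcn genes fall into pore-forming families, which open with voltage (Kv, Kcnq and EAG-type channels), with calcium (SK and IK channels), as inward rectifiers (Kcnj) or as background leaks (the tandem-pore K2P channels, Kcnk), and into auxiliary subunits that bind some of these pores. Of the 85 genes, 73 encode pore-forming or electrically silent pore subunits and 12 encode auxiliary or regulatory proteins.

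The tissue label was checked against islet markers. A list of 10 beta cell markers took 18.9% of all the authors' mean reads in nonpregnant and 22.2% in pregnant islets, and all 10 were in the table. Most of these reads came from Ins2 (10394603 and 11981604) and Ins1 (3449821 and 5230668). At an adjusted p under 0.05 by the authors' deposited table, 2 of the 10 were higher in pregnant islets (Ins1 and G6pc2) and 1 was lower (Slc30a8). All 85 potassium channel genes together took 0.086% and 0.0762%, or 72661 and 66766 mean reads out of 84493872 and 87654449.

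In pregnant islets Kcnk10, which encodes the mechanosensitive leak channel TREK2, and Kcnj5, which encodes a subunit of G protein-gated inward rectifiers, were several-fold higher, and Kcnab3 and Kcna2 were moderately higher. Lower levels were found for Kcna1, Kcnh5, Kcnk13, Kcnc4, Kcnab1 and Kcnh7, most of them best known from neurons. Of the 85 genes, those with the most reads, Kcnk16, Kcnh2 and Kcnh6, did not pass the threshold. With the threshold at 0.05 for the adjusted p of the authors' deposited table, 11 of the 85 genes were called (12.9%), against 11.7% of all genes, a share close to the background. Among them 4 were higher (4.71% of the members, against 7.57% of all genes) and 7 lower (8.24%, against 4.15%). Averaged over both groups, 69 of the 85 genes had 10 or more reads, and the median log2 ratio of these by the authors' deposited table was -0.02, beside -0.01 over 15682 genes filtered alike. Their quartiles were -0.36 and 0.28, beside -0.20 and 0.19 for those genes. The log2 ratio is pregnant over nonpregnant. In whole islets, fewer cells of a type and less RNA per cell cannot be told apart.

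**Figure D1:**
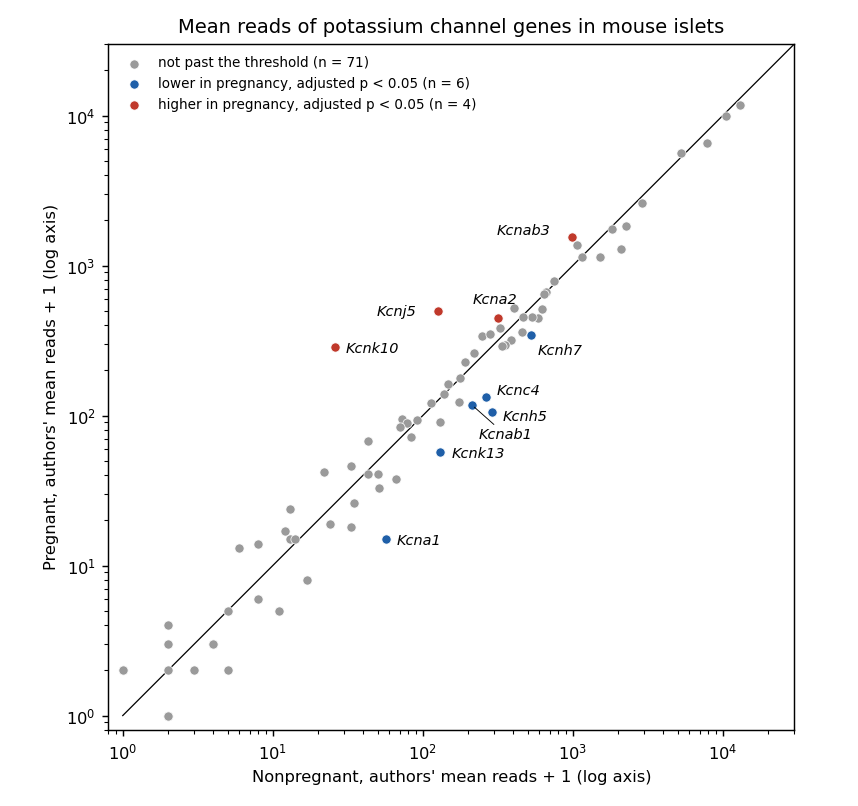
The authors' mean reads plus 1 of 81 of the 85 potassium channel genes in nonpregnant islets (horizontal log axis) and pregnant islets (vertical log axis), with the line of equal values and with genes past an adjusted p of 0.05 coloured and named. Kcnk10 (25 against 284 mean reads) and Kcnj5 (125 against 498) stand farthest above the line, while those shown with the most reads lie close to it.

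Kcnk10 showed the largest change of the 85 genes. Its authors' mean was 25 reads in nonpregnant and 284 reads in pregnant islets. The authors' deposited table gives an 11.4-fold rise with an adjusted p of 4.1e-39. By mean reads per kilobase of annotated exon, the measure used below for levels of different genes, Kcnk10 went from 2.85 to 32.4 and from place 65 to place 35 among the 83 genes with annotated exons. It was thus among the low genes in nonpregnant islets and near the middle of the order in pregnant islets. TREK2 belongs with TREK1 (Kcnk2) and TRAAK (Kcnk4) to the K2P channels that respond to membrane stretch and fatty acids. Kcnk2 had authors' means of 72 and 94 reads in nonpregnant and pregnant islets, a ratio of 1.33 by the authors' deposited table (adjusted p = 0.551), and Kcnk4 had 4 in both. Of the summed level of these 3 genes per kilobase, Kcnk10 made up 15.6% in nonpregnant and 61.9% in pregnant islets, whereas Kcnk2 made up 79.5% and 36.4%. Such shares have no error, since each rests on a single mean.

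Kcnj5 (minus strand, chromosome 9, 32314707 to 32344350 of GRCm38) showed the second largest rise. Its authors' means were 125 reads in nonpregnant and 498 reads in pregnant islets, a 4.06-fold rise by the authors' deposited table (adjusted p = 2.16e-07). The protein, GIRK4, is a pore subunit of the channels that G protein-coupled receptors open through G protein beta-gamma subunits, and it assembles with GIRK1 (Kcnj3). The other genes of this family did not pass the threshold. Kcnj3 had authors' means of 387 and 320 reads, Kcnj6 660 and 664, and Kcnj9 12 and 14, in nonpregnant and pregnant islets, with adjusted p-values by the authors' deposited table of 0.708, 0.98 and 0.968. Kcnj3 shares 31.1% of its exon bases with Gm26794 on the opposite strand, and neither files nor labels say whether counting used strand. Per kilobase, Kcnj5 went from 26.7 to 106 mean reads, from the third place in this family of 4 to the first, ahead of Kcnj6 with 87 and Kcnj3 with 61.4 in pregnant islets. Its share of the family's summed level was 14% in nonpregnant and 41.2% in pregnant islets. Kcnj1, which lies 28.1 kb from Kcnj5 on chromosome 9, was listed with a mean of 0 reads in nonpregnant and 1 in pregnant islets.

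The bases before the annotated transcription starts of Kcnk10 and Kcnj5 are printed because these genes rose most, and those of Kcnh5 and Kcnk13 because they fell and lie on chromosome 12, as Kcnk10 does. Each run covers 250 bases ending just before a RefSeq start on GRCm38.p6, 5′ to 3′ on the gene's strand, and capitals mark every CG dinucleotide.
Kcnk10, upstream start, chr12:98578214-98578463, minus strand: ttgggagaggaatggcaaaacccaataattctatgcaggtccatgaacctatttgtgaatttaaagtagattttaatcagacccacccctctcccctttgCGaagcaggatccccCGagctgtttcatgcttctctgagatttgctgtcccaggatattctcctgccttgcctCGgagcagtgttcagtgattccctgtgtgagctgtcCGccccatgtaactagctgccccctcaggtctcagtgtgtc
Kcnk10, downstream start, chr12:98575128-98575377, minus strand: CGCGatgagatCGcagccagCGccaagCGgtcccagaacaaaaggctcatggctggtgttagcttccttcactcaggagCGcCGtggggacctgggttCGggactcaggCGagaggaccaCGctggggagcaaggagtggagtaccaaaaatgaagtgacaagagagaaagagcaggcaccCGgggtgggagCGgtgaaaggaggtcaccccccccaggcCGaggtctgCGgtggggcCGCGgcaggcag
Kcnj5, chr9:32344345-32344594, minus strand: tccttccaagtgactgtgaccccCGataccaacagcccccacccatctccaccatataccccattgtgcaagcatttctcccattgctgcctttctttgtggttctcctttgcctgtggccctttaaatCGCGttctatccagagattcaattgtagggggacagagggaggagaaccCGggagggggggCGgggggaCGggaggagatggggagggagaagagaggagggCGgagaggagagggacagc
Kcnh5, chr12:75177333-75177582, minus strand: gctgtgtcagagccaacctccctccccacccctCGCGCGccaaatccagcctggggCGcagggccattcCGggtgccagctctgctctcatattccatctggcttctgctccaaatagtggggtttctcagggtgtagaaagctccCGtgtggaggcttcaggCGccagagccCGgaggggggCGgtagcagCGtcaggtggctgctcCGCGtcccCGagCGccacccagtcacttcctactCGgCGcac
Kcnk13, chr12:99964249-99964498, plus strand: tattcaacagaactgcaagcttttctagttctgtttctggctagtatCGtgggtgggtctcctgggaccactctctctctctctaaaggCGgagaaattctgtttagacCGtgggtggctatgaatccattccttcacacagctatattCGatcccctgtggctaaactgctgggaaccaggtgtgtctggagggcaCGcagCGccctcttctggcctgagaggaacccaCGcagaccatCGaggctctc
The upstream start of Kcnk10 has 4 CG dinucleotides in this window and its downstream start 16, while Kcnj5 has 7, Kcnh5 16 and Kcnk13 8. The median was 7 over the 87 promoters found for 62 of the 83 member symbols and 6 over all 32851 promoters of the table. Reads counted per gene do not show which Kcnk10 start was used.

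These windows were searched for TTCNNNGAA, the spaced palindrome bound by STAT factors, and for TGACGTCA, the cyclic AMP response element. Both read the same on either strand. TTCNNNGAA was found in 6 of the 87 member promoters (6.9%), beside 7.02% of all promoters, and TGACGTCA in 0, beside 1.55% of all. Among 11 promoters of called genes, found for 8 of the 11 genes, TTCNNNGAA was present in 1, at TTCCAAGAA, which begins 188 bases before the most upstream RefSeq start of Kcnab1, a gene that fell. That start lies 160.2 kb upstream of the gene as GENCODE M21 annotates it, and the bases after it were not found in a GENCODE transcript of the gene. Such a match was found for 58 of the 87 member promoters, among them the 5 printed above. None of the 5 windows printed above holds either string, which says only that these letters are absent there.

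**Figure D2:**
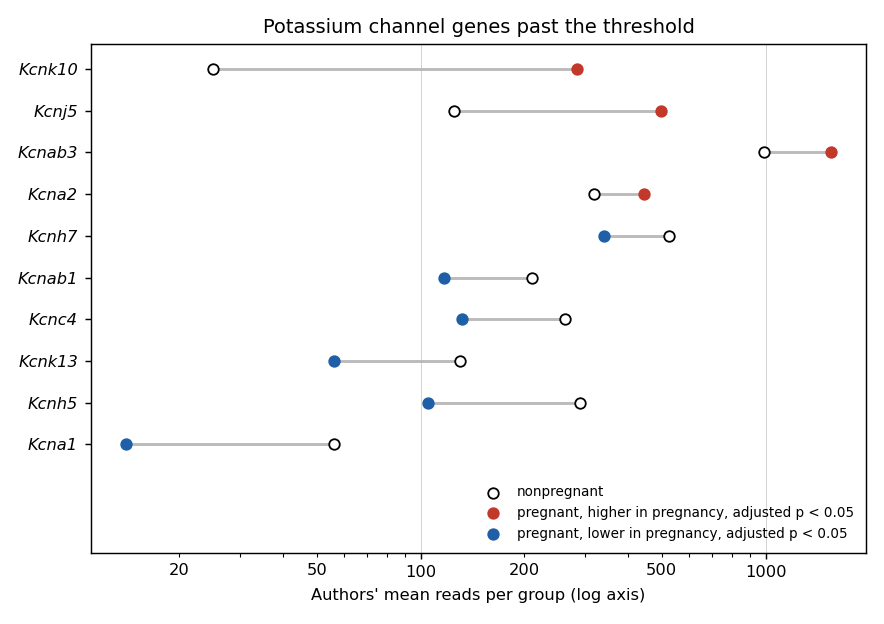
The authors' mean reads on a log axis for 10 potassium channel genes with an adjusted p under 0.05, ordered by log2 ratio, with open circles for nonpregnant and filled circles for pregnant islets. The 4 higher genes run from Kcnk10 to Kcna2 at 1.43-fold, and the lower genes shown from Kcnh7 at 0.67 to Kcna1 at 0.28 of the nonpregnant level.

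Among the delayed rectifiers and related voltage-gated channels of the Kv1 family, Kcna1 and Kcna2 changed in opposite directions. Kcna1 (minus strand, chromosome 6, 126640397 to 126646384) encodes the pore of a low-threshold axonal channel. Its authors' means were 56 reads in nonpregnant and 14 reads in pregnant islets. This was a fall to 0.28 by the authors' deposited table (adjusted p = 0.000975), on few reads in both groups. Kcna2, whose product assembles with that of Kcna1 in axons, had authors' means of 318 and 444 reads, a 1.43-fold rise by the authors' deposited table (adjusted p = 0.0165). The other 5 genes of the family did not pass, and Kcna5, the one with the most reads, had authors' means of 455 and 358. Kcna5, Kcna1 and Kcna6 neighbour each other on chromosome 6, with gaps of 105 and 61.9 kb, and their log2 ratios by the authors' deposited table were -0.31, -1.85 and -0.58. Kcna6 shares 39.6% of its exon bases with Gm26673 on the opposite strand, and whether counting used strand is not stated. The family's summed mean reads were 904 in nonpregnant and 881 in pregnant islets.

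Kcna1 and Kcna2 are expressed in nerve fibres, so markers of Schwann cells and neurons were read beside them. Of 7 Schwann cell markers, 1 was higher (Ngfr, 10.6-fold by the authors' deposited table) and 0 were lower, and the list's summed mean reads were 1775 in nonpregnant and 2761 in pregnant islets. That sum turned on Ngfr (137 and 1426 mean reads), without which the other 6 markers went from 1638 to 1335, and the list's median log2 ratio was -0.37. Without passing, the glial regulator gene Sox10 went from an authors' mean of 31 to 10 reads, Gfap from 17 to 7 and Cdh19 from 39 to 17. Of 6 neuronal markers, 0 were higher and 0 lower, with summed mean reads of 5726 and 6048. No marker of these lists was at 0. Their part in the results for these channel genes was not tested.

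Kv2 channels carry much of the delayed rectifier current of beta cells. The 2 IDs named Kcnb2 had ratios of 1.21 and 1.23 by the authors' deposited table, and neither passed. In the Kv3 family of fast-repolarising channels, Kcnc4 fell, from an authors' mean of 262 to 132 reads, to 0.52 by the authors' deposited table (adjusted p = 0.00482). Kcnc1 and Kcnc2 did not pass, at 1.21 and 0.86 by the authors' deposited table.

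The Kv4 channels give fast transient currents and work as complexes with cytoplasmic KChIP subunits (Kcnip) and the membrane proteins DPP6 and DPP10. Of the 3 Kcnd and 4 Kcnip genes, 0 passed the threshold by the authors' deposited table and 1 had an unadjusted p under 0.05. Their log2 ratios ran from -0.50 for Kcnd2 to 0.15 for Kcnd3 and Kcnip1. Kcnd1, the Kv4 pore gene with the most reads, had authors' means of 1157 and 1131 reads. Kcnip1, the KChIP gene with the most reads, had 5237 and 5668, and Kcnip4, the gene with the unadjusted p under 0.05, stood at a ratio of 0.78 by the authors' deposited table (adjusted p = 0.101). Both DPP genes were lower: Dpp6 had authors' means of 5286 and 3956 reads (ratio 0.77, adjusted p = 0.00533 by the authors' deposited table), and Dpp10 had 3778 and 2336 (ratio 0.63, adjusted p = 0.00256 by the authors' deposited table). Of 7 alpha cell markers, 3 were lower and 0 higher, with summed mean reads of 2034200 and 1419600, and whether this bears on the DPP genes was not tested.

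Of the silent Kv subunits (Kcnf, Kcng, Kcns and Kcnv), which do not form channels alone and modify Kv2 channels, 2 of 8 reached 10 mean reads. Kcnf1 had authors' means of 1830 and 1754 reads and Kcng3 465 and 452, both with log2 ratios within 0.03 of 0 by the authors' deposited table. Kcns3 went from 10 to 4 mean reads without passing (ratio 0.48, adjusted p = 0.596 by the authors' deposited table).

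The Kv beta subunits are cytoplasmic proteins with an aldo-keto reductase fold that bind Kv1 pores, and their genes moved apart. Kcnab3 rose from an authors' mean of 993 to 1550 reads, 1.6-fold by the authors' deposited table (adjusted p = 0.0122). Kcnab1 fell from 211 to 117 mean reads, to 0.57 by the authors' deposited table (adjusted p = 0.00383). Kcnab2 had authors' means of 334 and 288 reads and did not pass (ratio 0.88, adjusted p = 0.664 by the authors' deposited table). The summed reads of the family had a ratio of 1.27, while Kcnab3 held 72.8% of them. Without Kcnab3 the log2 ratio of the sums went from 0.35 to -0.43, so the direction of the family sum was that of this gene. Per kilobase Kcnab3 was the called gene with the highest level, with 347 mean reads in nonpregnant and 541 in pregnant islets. Kcnab3 shares 5.13% of its exon bases with Kcnab3os and Kcnab1 2.34% with A330015K06Rik, both on the opposite strand, and neither files nor labels say whether counting used strand.

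Kcnq channels carry the slow current that muscarinic receptors suppress in neurons, the M current, and with KCNE subunits they form cardiac and epithelial channels. Kcnq3, an M current pore gene, had authors' means of 7 and 13 reads. Kcnq1, a gene linked to type 2 diabetes risk in people, had 249 and 338 (ratio 1.39, adjusted p = 0.475 by the authors' deposited table). The exons of Kcnq1 overlap the antisense RNA Kcnq1ot1 over 2.96% of their bases, with the same limit on strand. Of the 4 KCNE genes, 0 passed by the authors' deposited table, 0 had an unadjusted p under 0.05, and 2 reached 10 mean reads, Kcne3 with 12 and 23 and Kcne4 with 32 and 45 mean reads.

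The EAG, ERG and ELK channels (Kcnh) held 29.5% of the reads of all members. The ERG genes Kcnh2 and Kcnh6, whose channels help to repolarise beta cells, stood next to Kcnk16 at the top of the members by level. Kcnh2 had authors' means of 10545 and 9955 reads (ratio 0.97, adjusted p = 0.957 by the authors' deposited table) and Kcnh6 of 7833 and 6511 (ratio 0.85, adjusted p = 0.488 by the authors' deposited table). The third ERG gene, Kcnh7, fell from 524 to 341 mean reads, to 0.67 by the authors' deposited table (adjusted p = 0.0424), and was the called member nearest to the threshold. It shares 4.57% of its exon bases with Gca on the other strand, and it made up 0.779% and 0.573% of the ERG level per kilobase in nonpregnant and pregnant islets. Of the EAG genes, Kcnh5 (minus strand, chromosome 12, 74897220 to 75177332) fell from an authors' mean of 289 to 105 reads, to 0.37 by the authors' deposited table (adjusted p = 0.0129). Kcnh1 had authors' means of 2109 and 1288 reads, a ratio of 0.62 without passing by the authors' deposited table (adjusted p = 0.313). Both EAG genes thus had lower means in pregnant islets, with sums of 2398 and 1393 reads. The 3 ELK genes did not pass and had sums of 603 and 716, counting Kcnh8 by the ID found in the annotation.

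**Figure D3:**
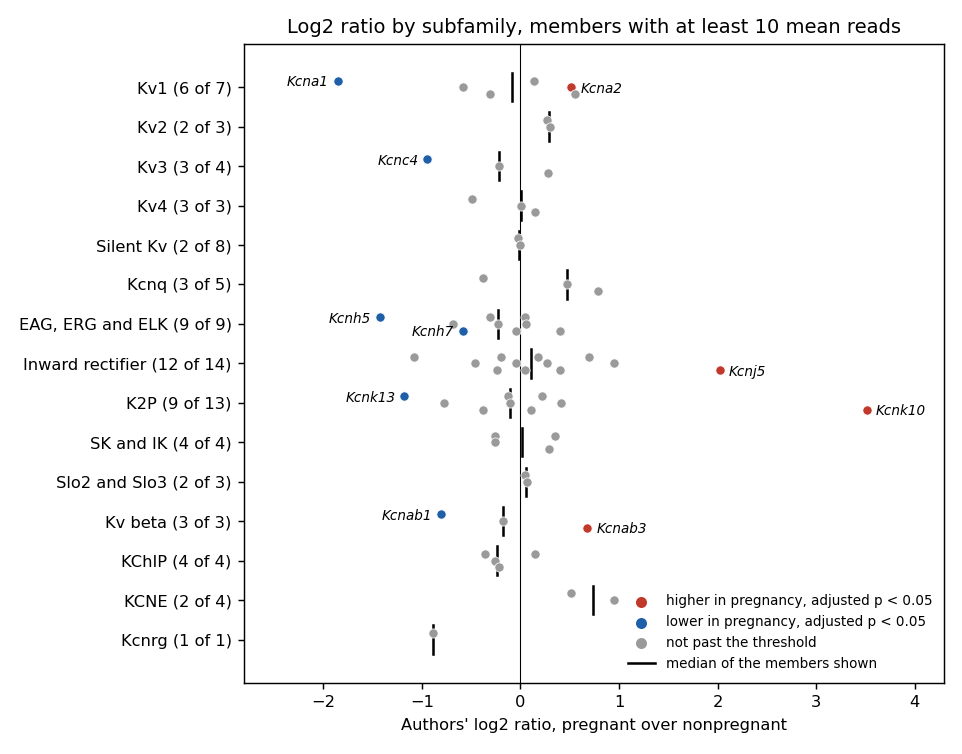
The authors' log2 ratio, pregnant over nonpregnant, of 65 of the 69 members with at least 10 mean reads, by subfamily (members shown of all members), with black bars for medians and colours for genes past an adjusted p of 0.05. Kcnk10 at 3.51 and Kcnj5 at 2.02 lie far to the right of their families' medians of -0.10 and 0.11, and Kcna1 at -1.85 lies farthest to the left.

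Among the inward rectifiers, Kcnj5 was the one called gene of 14. Kcnj8, the pore gene of the vascular ATP-sensitive channel and a pericyte marker, had authors' means of 42 and 67 reads (ratio 1.62, adjusted p = 0.406 by the authors' deposited table). Beside it, 1 of 10 markers of pericytes, smooth muscle and stellate cells was higher (Rgs5, 1.23-fold by the authors' deposited table) and 0 were lower, with summed mean reads of 13821 and 15053. Without Rgs5 the other 9 went from 5138 to 4670. Kcnj12, the inward rectifier with the highest level here, had authors' means of 1066 and 1375 reads (ratio 1.32, adjusted p = 0.243 by the authors' deposited table), Kcnj13 21 and 41, Kcnj4 173 and 123, and Kcnj14 16 and 7, without passing. Kcnj13 shares 49.1% of its exon bases with Gigyf2 on the opposite strand, and whether counting used strand is not stated. The sums of the 14 genes were 2777 in nonpregnant and 3385 in pregnant islets, and without Kcnj5 they were 2652 and 2887. The pore gene of the beta cell ATP-sensitive channel, Kcnj11, which is not among the members, had authors' means of 16399 and 17733 reads, and its receptor subunit gene Abcc8 131231 and 111128, and neither passed.

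Among the K2P channels, Kcnk16 had the highest level of the 83 members with annotated exons. It encodes TALK1, an alkaline-activated channel found mainly in pancreatic islets. Its authors' means were 12932 and 11738 reads (ratio 0.93, adjusted p = 0.677 by the authors' deposited table). Kcnk1, a weakly conducting leak channel, had 2914 and 2611 (adjusted p = 0.625 by the authors' deposited table), and Kcnk3, an acid-sensitive leak channel, 1509 and 1134 (ratio 0.77, adjusted p = 0.0929 by the authors' deposited table). Kcnk13, which encodes the halothane-inhibited channel THIK1, fell from an authors' mean of 130 to 56 reads, to 0.44 by the authors' deposited table (adjusted p = 0.0207), while Kcnk12, its close relative, had 749 and 788. Kcnk12 made up 90.1% and 95.7% of the level of this pair per kilobase. THIK1 is known from microglia, and of 9 leukocyte and macrophage markers found 1 was higher (Lyz2, 1.32-fold by the authors' deposited table) and 0 were lower, with summed mean reads of 6911 and 10363. C1qa, which did not pass (3195 and 6370, adjusted p = 0.0752 by the authors' deposited table), made most of that difference, and the other 8 markers summed to 3716 and 3993. Csf1r, another marker of this list, had authors' means of 916 and 990 reads. Kcnk10 and Kcnk13 both lie on chromosome 12, Kcnk10 at 98429437 to 98578310 on the minus strand and Kcnk13 at 99964499 to 100062682 on the plus strand of GRCm38, and they moved in opposite directions. Kcnk9 had 5 and 12 mean reads and did not pass.

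Calcium-activated channels of the SK and IK group, which bind calmodulin and shape the pause after each burst of spikes, were not called, and 1 of the 4, Kcnn1, had an unadjusted p under 0.05 by the authors' deposited table. Kcnn3 had the most reads of the 4, with authors' means of 2260 and 1846 (ratio 0.84, adjusted p = 0.329 by the authors' deposited table). Kcnn1 had 279 and 348 (ratio 1.28, adjusted p = 0.2 by the authors' deposited table), Kcnn2 190 and 226, and Kcnn4, the IK channel gene, 49 and 40. Kcnt1, Kcnt2 and Kcnu1, of the Slo family, and the regulator gene Kcnrg did not pass either. Kcnu1 had authors' means of 646 and 648 reads.

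The order of levels was nearly the same in both groups. By mean reads per kilobase, Kcnk16 led with 5440 in nonpregnant and 4938 in pregnant islets, followed by Kcnh2 and Kcnh6 at 1835 to 2207, Kcnk1 at 1304 and 1168 and Kcnip1 at 845 and 914. Of the 20 genes with the highest level in each group, 19 were the same. The 5 genes with the most reads, led by Kcnk16, Kcnh2, Kcnh6 and Kcnip1, held 56.5% of all member reads and the 11 called genes 5.32%. Of the 15 genes that averaged 1000 reads or more over both groups, 1 was called, Kcnab3. Without values per library it is not known which neighbours in this order differ beyond their spread.

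**Figure D4:**
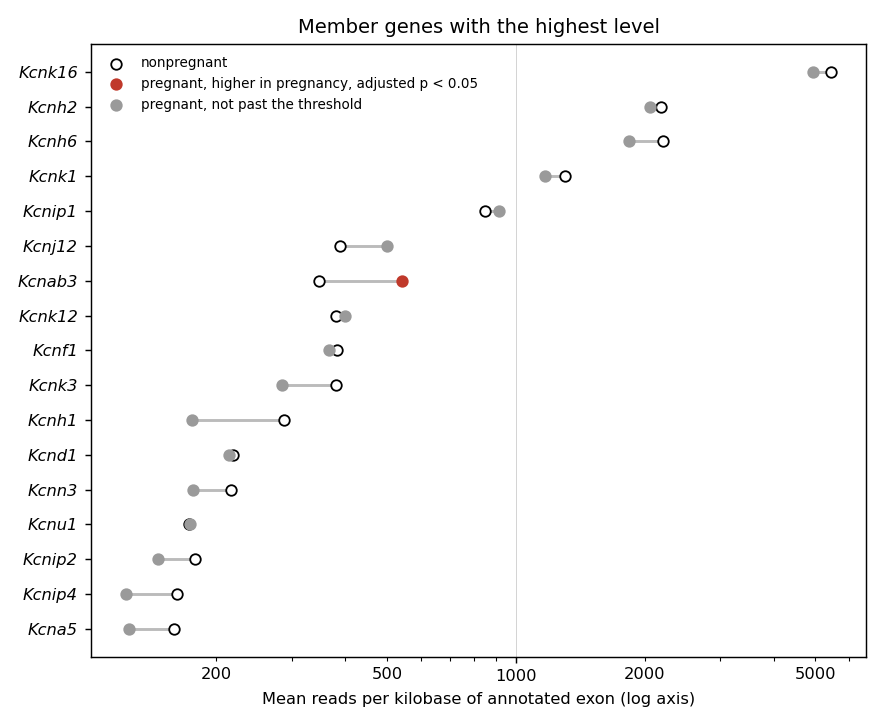
Mean reads per kilobase of annotated exon on a log axis for 17 of the 20 members with the highest level, with open circles for nonpregnant and filled circles for pregnant islets. Kcnk16 leads with 5440 and 4938, and Kcnab3, at 347 and 541, is the one gene of these past the threshold.

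Of 32 genes that act with these channels or beside them, 31 were in the table, and 4 were higher and 4 lower. The share called was 25.8%, against 11.7% of all genes, in a list put together with earlier results known. Calm2 and Calm3, which encode calmodulin, the calcium sensor of SK channels, were higher, at 1.4 and 1.28 by the authors' deposited table (adjusted p = 5.87e-05 and 0.00613). The pacemaker channel gene Hcn3 fell from an authors' mean of 1705 to 1180 reads, to 0.71 by the authors' deposited table (adjusted p = 0.000801), and Hcn2 and Hcn4 stood at 1.04 and 1.03 there. Cntnap2, which clusters Kv1 channels on axons, fell from 8137 to 5204 mean reads, to 0.65 by the authors' deposited table (adjusted p = 0.000297). The Kv2 partners Amigo1, Vapa, Vapb, Stx1a and Snap25 did not pass, with ratios from 0.86 to 1.05 by the authors' deposited table. Dpp6 and Dpp10, described above, were also called, as was the BK channel subunit gene Lrrc55, which rose from 21 to 3957 mean reads.

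Markers of other cell types differed between the groups as follows. Of 9 acinar markers 8 were higher and 0 lower, with sums of 0.0818% of mean reads in nonpregnant and 1.07% in pregnant islets, and Amy2a5 was listed at 0 in nonpregnant islets. All 6 markers of dividing cells were higher, with sums of 1495 and 7982 mean reads. Endothelial markers were not called (0 of 7), and 1 of 4 delta cell markers was lower. The part of acinar or dividing cells in the rises of Kcnk10, Kcnj5, Kcnab3 and Kcna2 was not tested.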

How the data were processed

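The submitters' processing notes name TopHat2 2.0.12, Bowtie, HTSeq 0.5.3p3 and the build GRCm38. The deposited table holds 1 mean read count per gene and group, rounded to whole numbers, per the file headers. The linear fold change, its log2, the p-value and the adjusted p-value (FDR) in that table are the authors' own, per the file headers, and neither headers nor labels name the tool behind the test. The deposited fold exceeded the ratio of the printed means by a factor of 1.02 in genes over 500 reads. Among 19963 lines, 21 repeated gene IDs were counted once. The design named a count model only if counts per library were present. They were not, so none was run, and members were called at the deposited adjusted p under 0.05.

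Members were grouped by symbol into 15 subfamilies and their mean reads summed. Levels are mean reads per kilobase of merged GENCODE M21 exons (GRCm38), found for 83 of 85 IDs. Genes were named if called, if the log2 ratio was at least 1 either way with 10 mean reads in 1 group, if among the 8 highest levels, or if in a fixed set of 12 islet channel genes. Some of these are not reported here. Other members, partners and markers named in the text illustrate their group. The members and lists were chosen with earlier results of these data known. The depth of single libraries is unknown, so no interval is given, and any spread between samples behind the authors' p-values may be technical. Adjusted values recomputed in Python 3.11.15 (pandas 2.3.3, numpy 2.4.6, scipy 1.17.1) were tested on simulated data. Alternatives covered the adjustment, threshold, read filter, scaling and pseudocount, and 2 were chosen after seeing the data (each symbol once, and no exon overlap).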

Additional observations from a re-analysis of the deposited data

How the results depend on the processing

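An adjusted p under 0.01 left 2 higher and 4 lower genes, dropping Kcna2, Kcnab3, Kcnh5, Kcnh7 and Kcnk13. An adjusted p under 0.1 gave 4 and 9, and adjustment over genes with at least 10 mean reads gave 4 and 8. The other alternatives for these counts gave 3 or 4 higher genes and 5 to 7 lower genes. The median log2 ratio of members ran from -0.11, scaled to total mean reads, to 0.00 minus the median of all genes, and that scaling moved the median of all genes by -0.09. Of the 15 subfamily sums, Kv beta changed by over 1.5 times when its most read gene was left out (log2 ratio -0.43). Leaving out that gene also changed the sign of smaller log2 ratios. These were Kv1 (-0.037 to 0.22), Kv2 (-0.015 to 0.249), Kcnq (0.01 to -0.285), KChIP (0.025 to -0.32), and SK and IK (-0.175 to 0.245). Kcnrg has 1 member, so its sum could not be tried in this way. For the 29 genes of the naming rule, 87 of 87 values under other pseudocounts or scaling stayed within 1.5 times, and no called gene changed direction. No paired analysis was possible because the table holds group means only. Leaving out single replicates was not run for the same reason. For genes at a few reads, such as Kcna1, the depth per library that limits the call is not known.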
